A study of Ovis aries and Mus musculus with 10 samples.

Results

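The mammary gland of ewes at day 15 of the cycle was compared with that of ewes at days 14 and 64 of gestation, for all microRNAs (miRNAs) that Agilent miRNA arrays could detect. The arrays carried probes for 567 mouse miRNAs. A miRNA was included when the scanner software marked it as detected on at least 1 of the 3 arrays, which left 231 miRNAs. Of these, 176 were detected on all 3 arrays, 7 in cycle only, 3 at day 14 only, 16 at day 64 only and 14 on both gestation arrays but not in cycle. Each stage and day had 1 array, so no value here has a replicate. Errors given with ± are standard errors between the spots of an array and take no account of differences between animals.

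The 3 arrays came from a series of 10 that covers sheep (Ovis aries) and CD1 mice, with no treatment of the animals. Other sheep arrays (gestation day 125 and lactation day 60) and 3 of the mouse arrays entered none of the comparisons here. Total RNA was taken from snap-frozen mammary tissue. The labels name neither the breed nor the age of the ewes, do not say how many animals an RNA sample came from, and do not say from which event day 15 of the cycle was counted. The 3 sheep arrays lay on 1 slide.

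miRNAs are short RNAs that are cut from hairpin precursors and guide silencing proteins to partly complementary messenger RNAs. One hairpin can yield a miRNA from each arm, and neighbouring hairpins are often cut from 1 shared transcript. In the mammary gland the cycle and early to mid gestation span the growth and branching of the ducts and the first budding of alveoli, and in bulk tissue a lower miRNA level can mean fewer cells of a type or less RNA per cell, which cannot be told apart.

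Levels are given as log2 of the signal relative to a scaling value of the array, which was the 75th percentile over those 94 miRNAs that all 10 arrays detected. That percentile was 1998 intensity units in cycle, 1831 at day 14 and 1561 at day 64. Levels below 0.0065 of it (-7.27 on the log2 scale) were set to this floor. A level compares 1 miRNA between arrays and says nothing about its abundance relative to another miRNA, since probes differ. Of the 231 miRNAs, 166 lay above the floor on all 3 arrays and 21 at it on all 3. The software detected 198 of the mouse miRNAs in cycle, 206 at day 14 and 208 at day 64, no spot was saturated, and 2.00 to 2.46% of the spots were outliers.

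Gestation differed from cycle in both directions, and the differences were larger at day 64 than at day 14. Over the 210 miRNAs above the floor somewhere, the median size of the log2 difference from cycle was 0.36 at day 14 and 0.71 at day 64, and the median signed difference was close to 0 on each day (-0.00 and -0.03). In the mean of the gestation days, 26 miRNAs (11.3% of the 231) were at least 2-fold higher and 18 (7.79%) at least 2-fold lower than in cycle, with values below the floor set to it. Of these, 17 of the 26 and 12 of the 18 lay above the floor on all 3 arrays. For 9 of the higher and 1 of the lower miRNAs the dim side was not well above background and only a bound can be given, which is under 2-fold for miR-452, miR-483, miR-666-5p, miR-874, miR-877 and miR-31*. At day 14 alone the counts were 17 higher (7.36%) and 9 lower (3.9%), and at day 64 alone 35 higher (15.2%) and 31 lower (13.4%). The shares in either direction were 19% in the mean, 11.3% at day 14 and 28.6% at day 64. All 26 of the higher and 16 of the 18 lower miRNAs differed more from cycle at day 64 than at day 14.

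The split between higher and lower miRNAs moved with the scaling. It was 20 higher and 41 lower with the 75th percentile taken over all miRNAs of the array, 21 and 30 without scaling, and 16 and 75 in the authors' value table. These settings moved the median difference of all miRNAs with a difference to -0.35, -0.19 and -0.72. In each of these 3 settings all 26 higher miRNAs stayed above 0 and all 18 lower ones below 0. Others ended most of the calls. With normexp background correction 7 of the 26 stayed above 0, and 3 of the 26 and 2 of the 18 remained past 2-fold. That correction treated the arrays unlike. It brought the median spot to 380 intensity units in cycle, but to 70.4 at day 14 and 70.1 at day 64. The values before were alike, at 44.2, 45.0 and 43.7. The main setting used another value, the software's processed signal. Its median spot was not alike, at 0.79 in cycle, 2.62 at day 14 and 1.89 at day 64. With the floor taken from all 10 arrays 21 of the 26 and 14 of the 18 kept their sign, and 10 and 7 remained past 2-fold. Of the 44 miRNAs, 41 had at least 2 probes above background on 1 or more of the 3 arrays. For none of these did the probes disagree in sign, but in 5 the probe differences lay over 2-fold apart. Taking the gestation days as 2 samples of 1 group, limma had 1 residual degree of freedom. It gave no miRNA an adjusted p under 0.05 among 210 tested (smallest adjusted p 0.564), with 9 at an unadjusted p under 0.05.

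The largest difference was that of miR-494, a miRNA of the imprinted Dlk1-Dio3 domain. Its level was -3.79 in cycle, -0.80 at day 14 and 0.64 at day 64, a mean log2 difference of 3.71 ± 0.013 or 13.1-fold. miR-1224, a mirtron spliced out of a short intron, was at -2.42, 0.07 and 2.01 (3.46 ± 0.025, 11.03-fold). Both were lowest in cycle and highest at day 64, and miR-1224 was among the 10 miRNAs of highest signal at day 64 but not on the other arrays. The probe targets lie on mouse chromosome 12, positions 110953584 to 110953598, for miR-494 and chromosome 16, positions 20604534 to 20604545, for miR-1224 (mouse build mm9, per the file headers).

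miR-125a-3p, the arm opposite the better known miR-125a-5p, was also well above background on all 3 arrays. It was at -2.41 in cycle, -0.21 at day 14 and 0.38 at day 64 (2.50 ± 0.0076, 5.66-fold). miR-341, another Dlk1-Dio3 miRNA, was at -6.49, -4.00 and -2.35 (3.32 ± 0.05). miR-671-5p, known to direct cleavage of the circular RNA CDR1as, was at -7.26, -4.88 and -3.64 (3.00 ± 0.089), close to the floor in cycle. These 3 miRNAs followed the order of miR-494, with cycle lowest and day 64 highest.

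For 4 of the next miRNAs the cycle array gave only a bound, because no probe was well above background there. A bound sets the gestation mean against the lowest probe signal well above background on the cycle array. Where the miRNA's own signal, averaged over its probes, was higher, that was used instead. miR-188-5p was at least 4.16-fold higher in gestation, with levels of -5.30 at day 14 and -3.46 at day 64. miR-721 was at least 3.94-fold higher (-5.16 and -3.75), miR-680 at least 3.15-fold (-5.36 and -4.19) and miR-135a* at least 2.5-fold (-6.07 and -4.16). All 4 were higher at day 64 than at day 14.

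The remaining miRNAs of the 12 with the largest positive difference were measured on each array. miR-709 was at -6.49, -4.22 and -2.95 in cycle, at day 14 and at day 64. miR-296-5p, from the imprinted Gnas region, was at -5.53, -3.90 and -2.98, and miR-712, which is cut from a ribosomal RNA precursor, at -6.99, -5.44 and -4.49. With normexp, which lifted the cycle array far more than the gestation arrays, miR-671-5p, miR-709, miR-721, miR-296-5p and miR-712 came to between -0.08 and -0.00.

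**Figure D1:**
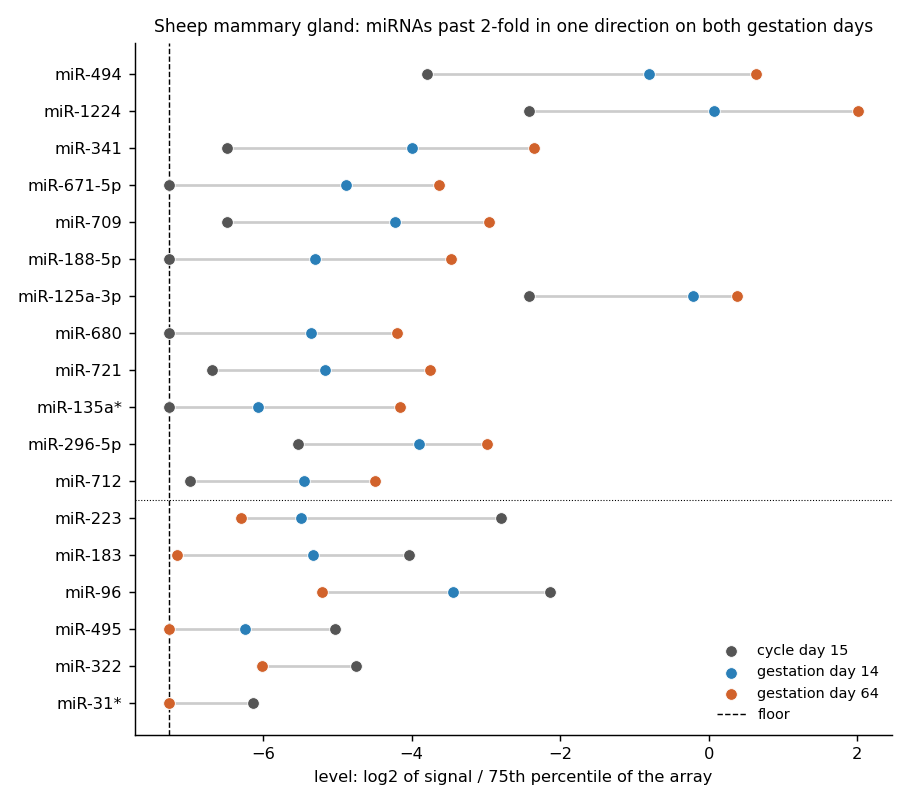
Level (log2 of signal over the 75th percentile of the array) of the 18 named miRNAs that were past 2-fold in one direction on each gestation day, with 1 point per array (grey cycle day 15, blue gestation day 14, orange gestation day 64) and the floor of -7.27 as a dashed line. In the upper 12 the cycle point is lowest and day 64 highest, and in the lower 6 the cycle point is highest.

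Among the miRNAs that were lower in gestation, miR-223 stood first. miR-223 is made by granulocytes and their precursors. Its level was -2.80 in cycle, -5.49 at day 14 and -6.30 at day 64, a log2 difference of -3.10 ± 0.031 or 8.57-fold lower. The cycle array was thus high and both gestation arrays low, with most of the difference present at day 14. The probe target of miR-223 lies on mouse chromosome X, positions 93438224 to 93438244 (mm9).

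miR-96 and miR-183, members of a cluster known from epithelia and sensory organs, were lower step by step. miR-96 was at -2.13 in cycle, -3.44 at day 14 and -5.21 at day 64 (-2.19 ± 0.021, 4.57-fold lower). miR-183 was at -4.04, -5.33 and -7.15 (-2.20 ± 0.058, 4.6-fold lower). Their targets lie within the same stretch of mouse chromosome 6, from 30119506 to 30119729 (mm9). miR-182, the remaining member of that cluster, was not among the 231 miRNAs.

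miR-322, the mouse counterpart of human miR-424, was at -4.75 in cycle and -6.02 on each gestation array (-1.27 ± 0.04). miR-495 of the Dlk1-Dio3 domain was at -5.03 in cycle, -6.24 at day 14 and at the floor at day 64, which makes day 64 at least 2.79-fold lower. miR-31*, the arm opposite miR-31, was at -6.14 in cycle and at the floor on both gestation arrays, which gives a bound of only 1.27-fold.

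Between the gestation arrays themselves, 22 miRNAs (9.52%) were at least 2-fold higher and 17 (7.36%) at least 2-fold lower at day 64 than at day 14 (16.9% in either direction). miR-801, which is a fragment of the U11 small nuclear RNA, was higher by 2.00 (from -3.97 to -1.97), miR-1224 by 1.94, miR-135a* by 1.91, miR-188-5p by 1.83 and miR-483, from an Igf2 intron, by 1.74. miR-409-3p was lower by a log2 difference of -2.43, miR-410 by -1.86, miR-183 by -1.82, miR-487b by -1.81 and miR-96 by -1.77. Of these 5, all but miR-183 and miR-96 belong to the Dlk1-Dio3 domain. miR-409-3p and miR-410 were not above background at day 64.

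Several miRNAs of high signal in the gland were within 2-fold of cycle on both days. miR-21, which represses Pdcd4, was at 2.64 in cycle, 3.26 at day 14 and 2.59 at day 64. let-7b was at 2.82, 2.67 and 3.14, and miR-125b-5p at 1.73, 1.66 and 2.21. miR-26a, a repressor of Ezh2, was past 2-fold higher at day 64 (1.33, 1.74 and 2.65), whereas its relative miR-26b was at -0.64, -1.16 and -1.37. let-7a, let-7b, miR-125b-5p, miR-21, miR-26a, miR-27a and miR-29a were among the 10 miRNAs of highest signal on all 3 arrays.

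Counts past 2-fold in the groups that follow stand against 11.3% higher and 7.79% lower over all 231 miRNAs. The miR-200 family keeps cells epithelial by silencing the Zeb factors, and it was lower at day 64. miR-200b was at 0.76 in cycle, 0.21 at day 14 and -0.57 at day 64. miR-200a was at -0.99, -1.20 and -1.92, and miR-429 at -2.68, -3.42 and -4.74 (-1.40 ± 0.021). In the gestation mean miR-429 was the only 1 of 5 members past 2-fold. At day 64 alone miR-200b was past 2-fold as well, at -1.33. miR-200c was at 0.46, 0.42 and -0.25, and miR-141 at 0.12, 0.33 and 0.14. The family median was -0.21 at day 14 and -0.94 at day 64, against -0.00 and -0.03 over all miRNAs above the floor.

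All 5 miRNAs measured from the miR-429, miR-200a and miR-200b hairpins of mouse chromosome 4 were lower than in cycle in the gestation mean, the passenger strands miR-200a* and miR-200b* included, with a median of -0.58. miR-200c and miR-141, both from chromosome 6, were at -0.38 and 0.11, so the loci overlap in their values. No test compared them. miR-205, a miRNA of basal mammary epithelium, was at -1.11 in cycle, -1.11 at day 14 and -0.09 at day 64, so it did not follow the miR-200 family. Of the other epithelial miRNAs, miR-31 was lower at day 14 only (-3.97, -5.01 and -4.01), and miR-34a was at -1.18, -1.18 and -1.57.

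The let-7 family, which opposes Lin28, was lower in 8 of 9 members. Its median difference was -0.57 in the gestation mean, against -0.04 over the 210 miRNAs above the floor somewhere. let-7f was at 1.47, 0.80 and 0.20 (-0.97 ± 0.0075), let-7e at -0.77, -1.29 and -2.02, and miR-98 at -3.29, -3.88 and -4.74 (-1.02 ± 0.018). In that mean miR-98 was the 1 member past 2-fold, and let-7b, at 0.09, was the exception in direction. At day 64 alone let-7e (-1.25) and let-7f (-1.27) were past 2-fold as well. All of the 6 miRNAs cut from the Myc-induced miR-17-92 transcript were below their cycle level. In the gestation mean their differences lay between -0.95 for miR-92a and -0.15 for miR-19b, none past 2-fold. At day 64 alone miR-18a and miR-92a were past 2-fold, each at -1.14. With the paralogous clusters, 10 of 11 were below 0 in the gestation mean and the median was -0.50.

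Members of the miR-15/16 seed family, which represses cyclins and Bcl2, went different ways. miR-15b was at -0.86, -1.51 and -2.35 (-1.08 ± 0.018) and miR-15a at 0.21, -0.19 and -0.67. miR-195 was at -5.07, -5.32 and -4.31, so it was above its cycle level at day 64 only, and miR-16 was at the floor throughout. miR-322, described above, was the other member past 2-fold, and the median over the 6 members was -0.42.

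The miR-29 family, which represses collagens and other matrix genes, was higher in all 3 members. miR-29a was at 0.85 in cycle, 1.31 at day 14 and 1.83 at day 64, miR-29b at -0.61, -0.09 and 0.23, and miR-29c at -0.58, -0.12 and 0.34. The 3 differences lay between 0.68 and 0.73, within 2-fold, and the passenger strand miR-29c* stood at 0.63. The family median was also above 0 with each other scaling of the scanner values. In the authors' value table it was -0.12, where the median of all miRNAs with a difference was -0.72. The miR-30 family held no such common direction. miR-30d was higher (0.83 ± 0.011) and miR-30c lower (-0.50 ± 0.018), and the family median of -0.18 turned to 0.02 with quantile normalization.

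miR-221 and miR-222 share a cluster on the X chromosome and a seed, and both repress the cell cycle inhibitor Cdkn1b. They differed in opposite directions. miR-221 was at -3.79, -4.52 and -5.65 (-1.29 ± 0.024), highest in cycle, and miR-222 at -5.88, -4.98 and -4.33 (1.22 ± 0.035), lowest in cycle. miR-148a, which is abundant in milk and represses Dnmt1, was at -1.70, -2.14 and -2.75. miR-10a, of a Hox cluster, was at -3.98 in cycle and below that by log2 differences of -1.01 at day 14 and -0.95 at day 64.

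**Figure D2:**
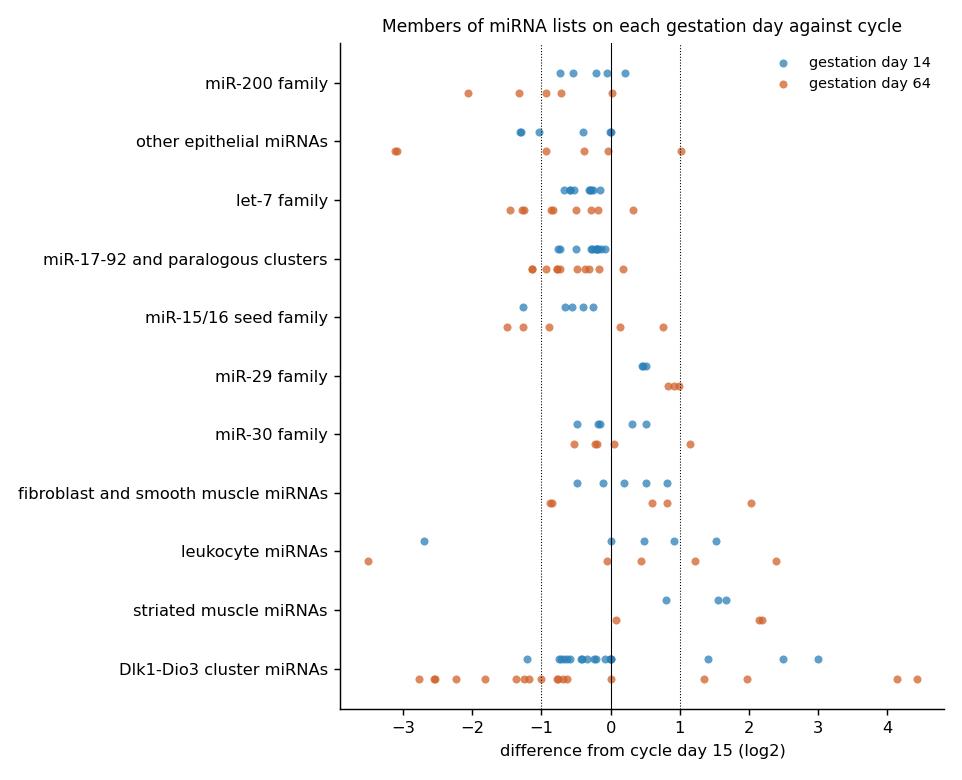
Log2 difference of each gestation day from cycle day 15 for the members of 11 miRNA lists that lay above the floor on at least 1 of the 3 arrays (1 point per miRNA, blue day 14, orange day 64, dotted lines at 2-fold). The 3 miR-29 points lie together above 0 on each day, most let-7 and miR-17-92 points lie below 0, and the Dlk1-Dio3 points spread from -2.77 to 4.43 at day 64.

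Markers of other cell types differed unevenly. Of the leukocyte miRNAs, miR-150, of mature lymphocytes, was at -6.30 in cycle, -4.77 at day 14 and -3.90 at day 64 (1.96 ± 0.05). miR-142-5p was at -4.29, -3.38 and -3.08 (1.06 ± 0.025), whereas miR-142-3p from the same hairpin, found in all blood cell lineages, was at -0.58, -0.10 and -0.63. Together with miR-223, this makes 2 of 5 leukocyte miRNAs past 2-fold higher and 1 lower (40% and 20%, against 11.3% and 7.79% over all miRNAs). miR-155 was above background at day 64 only and miR-146a was not among the 231 miRNAs. The part of leukocytes in these values was not tested.

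The muscle miRNAs miR-133a and miR-133b were higher in gestation. miR-133a was at -7.27 (the floor), -5.72 and -5.13, and miR-133b at -6.53, -4.87 and -4.35 (1.92 ± 0.065). Their probes differed in size. With the floor set per probe, those of miR-133a gave 0.47 and 1.70, and those of miR-133b 0.92 and 1.82. miR-1, cut from the same transcript as miR-133a, was at -6.14, -5.34 and -6.06, higher at day 14 only. miR-206 was at the floor throughout, and miR-208a, miR-208b and miR-499 were not detected. The scaled signals of the 4 members summed to 0.038 in cycle, 0.084 at day 14 and 0.099 at day 64, in units of the scaling value of an array. With normexp the list median turned from 1.14 to -0.01.

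Of the fibroblast and smooth muscle miRNAs, miR-145 was at -4.32, -3.50 and -2.29 (1.42 ± 0.021) and miR-143, from the same transcript, at -1.61, -1.09 and -0.79 (0.67 ± 0.01). miR-199b was lower at 0.88, 0.40 and 0.00, and miR-214 at -2.35, -2.46 and -3.20. In contrast miR-199a-5p, of the same cluster on mouse chromosome 1, was at -0.78, -0.59 and -0.18, a difference of 0.39 in the gestation mean. The endothelial miR-126-3p, from an Egfl7 intron, was at 0.16, 0.55 and 0.94, and miR-126-5p at -5.98, -6.20 and -6.32. The red cell miR-451 was at -2.77, -2.52 and -2.45, and miR-144 was not detected. The liver miRNA miR-122 and the neural miRNAs miR-124 and miR-9 were not detected on these arrays, while miR-128, which is also listed as neural, was at -4.79, -5.14 and -6.32. The labelled tissue thus carried epithelial, stromal, endothelial and blood cell miRNAs on every array.

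The Dlk1-Dio3 domain holds a large imprinted group of miRNAs expressed from the maternal allele. Of 46 domain miRNAs on the array, 19 were among the 231. 3 were called higher (miR-494, miR-341 and miR-666-5p, the last with a bound under 2-fold) and 5 lower (miR-495, miR-487b, miR-410, miR-409-3p and miR-382). These are 15.8% and 26.3% of the 19, against 11.3% and 7.79% over all miRNAs. The median over the 19 was -0.63, with 13 below 0 and 5 above. In the densest stretch of the cluster on mouse chromosome 12 (110947280 to 110981994, mm9), 18 miRNAs and passenger strands were measured. There 2 were called higher (11.1%, close to the 11.3% over all miRNAs) and 7 lower (38.9%, against 7.79%).

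Each of the 5 lower members of the domain differed more from cycle at day 64 than at day 14, when miR-495 alone was past 2-fold. miR-487b was at -4.28, -5.02 and -6.83 (-1.64 ± 0.041). miR-409-3p was at -4.45 and -4.78 in cycle and at day 14 and at least 4.18-fold lower at day 64 than in cycle, and miR-410 was at -4.73 and -5.41 and at least 3.43-fold lower at day 64. miR-127 was at -2.27, -2.28 and -3.52 and miR-379 at -2.25, -2.47 and -3.63, so most of both differences lay at day 64. miR-494, miR-341 and miR-666-5p were in contrast higher from day 14 on, miR-666-5p with a bound of 1.82-fold in the gestation mean.

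**Figure D3:**
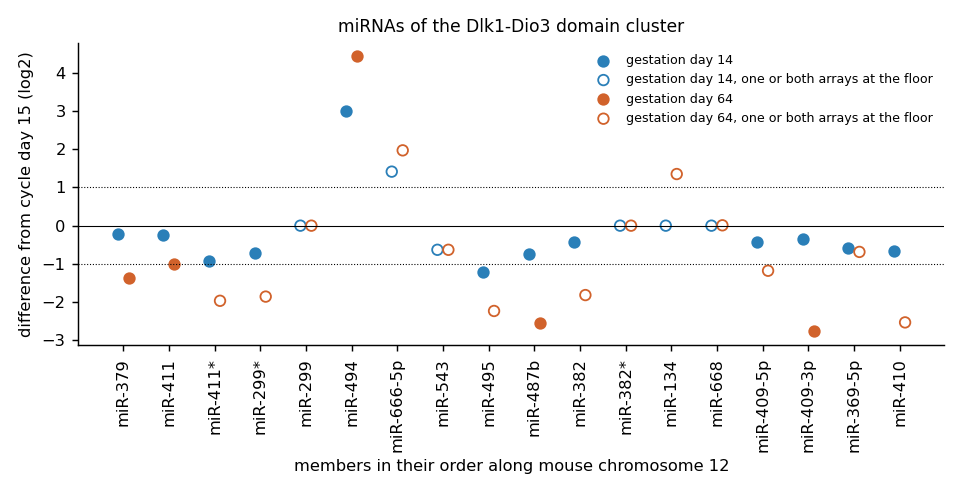
Log2 difference from cycle day 15 for the 18 measured miRNAs of the Dlk1-Dio3 cluster in their order along mouse chromosome 12 (blue day 14, orange day 64, dotted lines at 2-fold). Open points had one or both arrays at the floor. miR-494 stands at 2.99 and 4.43, while miR-487b, miR-409-3p and miR-410 lie between -2.77 and -2.53 at day 64.

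Arms of hairpins, paired by name, were compared where each was above background on all 3 arrays, which held for 14 pairs. The targets given for miR-199b and miR-199b* lie on mouse chromosomes 1 and 2, so by position that pair is not from 1 hairpin. By position miR-199b (-0.68) lay beside miR-199a-5p (0.39), a pair not among the 14. The median distance between the differences of paired arms was 0.40, and 2 pairs were over 2-fold apart. miR-125a-3p stood at 2.50 while miR-125a-5p was at -3.18, -3.43 and -3.43, a difference of -0.25. miR-140* was at -4.05, -3.33 and -2.04 (1.36 ± 0.013) and miR-140 at -3.11, -3.00 and -2.66 (0.28 ± 0.014). In 3 of the 14 pairs the arms lay on opposite sides of 0.

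**Figure D4:**
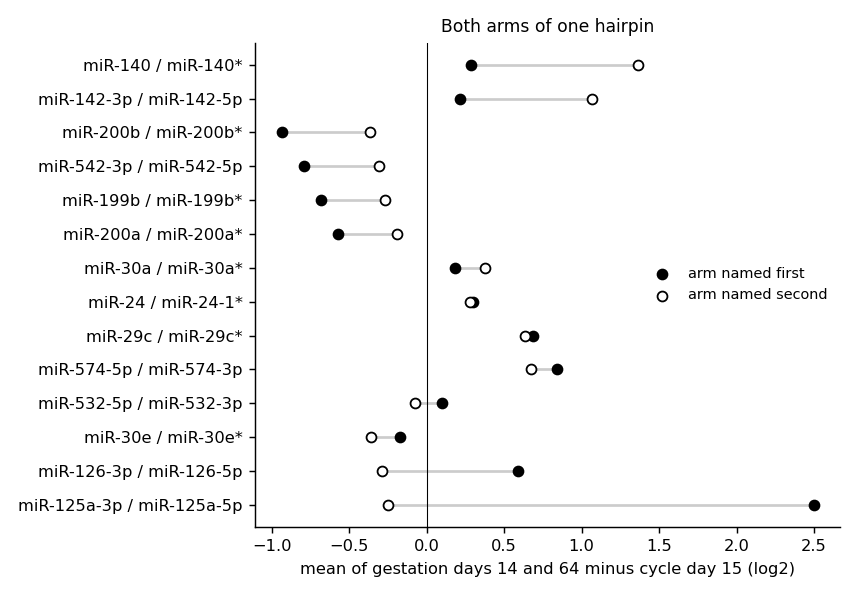
Mean log2 difference of gestation days 14 and 64 from cycle day 15 for 14 pairs of arms matched by name (filled point for the arm named first, open point for the arm named second, grey line between them). The targets of miR-199b and miR-199b* lie on different mouse chromosomes. The arms of miR-29c and of miR-24 lie together, and those of miR-125a lie farthest apart, at 2.50 and -0.25.

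The higher and lower miRNAs differed in the design of their probes. The scanner files give the stretch of the mouse genome that each probe targets, and its length varies because Agilent trims miRNA probes to even out their melting temperatures. The median span per miRNA was 13.5 bases among the miRNAs past 2-fold higher (25 of 26 with a span), 19 bases among the 18 past 2-fold lower and 17.5 bases over the 229 of 231 with a span. The shortest span among the lower ones was 15.5 bases. Of the 26 higher miRNAs 12 had 4 probes, of the 18 lower ones none, and of all 231 there were 48. This comparison was added after the differences had been seen.

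The difference from cycle was more negative at longer spans. Among miRNAs above the floor somewhere, the 46 with a span of up to 15 bases had a median difference of 0.74, with 19 past 2-fold higher and 0 lower. The 45 with a span over 15 and up to 17 bases had a median of 0.10, the 57 over 17 and up to 19 bases -0.18, and the 60 over 19 bases -0.31, with 0 past 2-fold higher and 9 lower. Across 164 miRNAs above the floor on all 3 arrays, span and difference correlated at r = -0.47 at day 14 and -0.45 at day 64 (Spearman -0.40 and -0.37), 2 values that share the cycle array. Between the gestation arrays r was -0.32 (Spearman -0.28). These correlations are across miRNAs, which share arrays and base composition, and describe the arrays only.

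Probes for the same miRNA also differed with span. In 120 miRNAs, probes of different spans (mostly 1 base apart) were above background on all 3 arrays, and the shorter one gave the more positive difference in 93, by a median of 0.08 (quartiles 0.01 and 0.22). The widest gap was that of miR-27a, with 0.73 from its 16-base target and -0.46 from its 17-base target. miR-27b showed 0.96 and 0.12, and miR-30a 1.02 and 0.02. In miR-494 the probes gave 3.70 and 3.71, and in miR-125a-3p 2.48 to 2.52. Those of miR-1224 lay farther apart, with 3.85 at 10 bases and 3.33 at 12 bases.

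**Figure D5:**
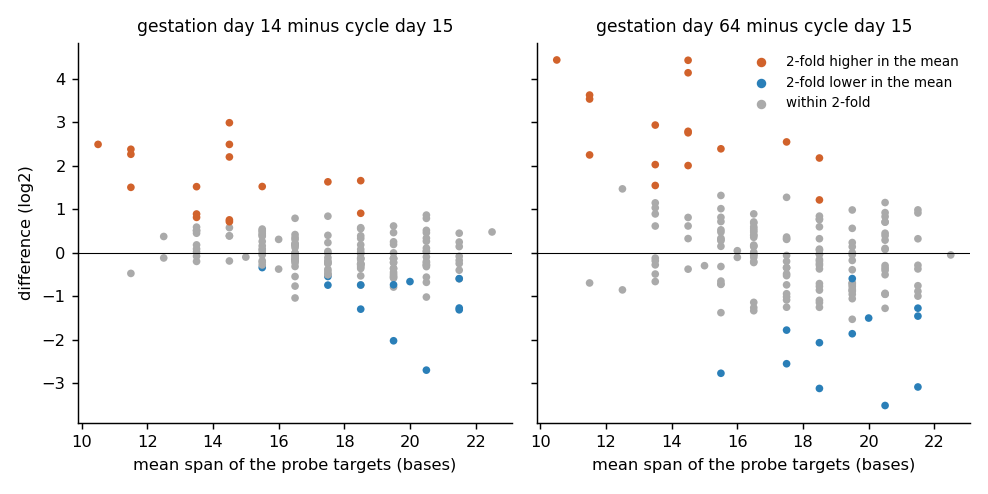
Log2 difference from cycle day 15 against the mean span of a miRNA's probe targets in bases, for 164 miRNAs above the floor on all 3 arrays (left gestation day 14, right day 64, orange past 2-fold higher in the mean of the days, blue past 2-fold lower, grey within 2-fold). Points at short spans lie mostly above 0, and no blue point lies below a span of 15.5 bases.

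Several of the values above stand beside spans of unlike length. miR-494 and miR-341 had a span of 14.5 bases, miR-666-5p 12.5, miR-1224 the shortest of all 231 miRNAs, miR-222 13.5 against 19.5 for miR-221, miR-26a 15.5 against 19.5 for miR-26b, and miR-125a-3p 14.5 against 18.5 for miR-125a-5p. The part of probe design in these differences was not tested. Against the median of the miRNAs of like span, miR-494 lay 2.97 above, miR-1224 2.73, miR-341 2.58 and miR-125a-3p 1.76. miR-666-5p lay 0.96 above that of its class, miR-26a 0.77 and miR-222 0.49. miR-221 (-0.99), miR-26b (-0.33) and miR-125a-5p (-0.07) lay below theirs. Further miRNAs also differed from those of like span. The miR-29 members had spans of 19.5 to 21.5 bases and lay about 0.99 above the median of the miRNAs with such spans. miR-133a, miR-133b and miR-296-5p, with spans of 17.5 to 18.5 bases, lay 2.02, 2.10 and 2.27 above theirs. The single probes of miR-133a (0.47 and 1.70) and of miR-133b (0.92 and 1.82) were far apart, and those of miR-296-5p close (2.12 and 2.07). miR-223 lay below the median of its class by a log2 difference of -2.79, miR-183 by -2.02, miR-96 by -1.89 and miR-429 by -1.22. The let-7 members, with spans of 18.5 to 21.5 bases, had a median of -0.39 relative to their classes, with 2 of 9 above. For miR-17-92 and its paralogous clusters, with spans of 13.5 to 20.5 bases, that median was -0.39, with 1 of 11 above.

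By symbol, 75 of the 231 miRNAs matched a sheep miRNA gene of RefSeq (assembly ARS-UI_Ramb_v3.0), 2 of the 26 higher ones and 7 of the 18 lower ones. That annotation held only 106 miRNA genes, and miR-16 and miR-133a, for example, had no match. A missing match therefore does not show that sheep lack the miRNA. Passenger strands such as let-7b* were matched through the name of their hairpin. How well each mouse probe pairs with the sheep miRNA was not examined.

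In mice the nearest comparison, virgin gland against gestation day 10, shares no array with the sheep values and lay on another slide. Of the 26 miRNAs higher in sheep gestation, 16 were detected in mouse, with 3 past 2-fold higher and 3 lower, and a median of 0.07. Of the 18 lower in sheep, 10 were detected, with 2 past 2-fold higher and 0 lower, and a median of 0.28. Over all members detected in mouse, 144 miRNAs, 10 were past 2-fold higher and 7 lower, with a median of 0.13. Across 121 miRNAs detected on all 5 arrays the differences correlated at r = -0.26 (Spearman -0.16), as a description of single arrays. In mouse, span and difference correlated at r = -0.01 over 127 miRNAs.

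Single miRNAs differed between the species' arrays. miR-494 was at -0.80 in virgin mice and -3.05 at gestation day 10, where sheep showed the opposite order. miR-183 was at -5.84 and -3.99 and miR-96 at -4.55 and -3.44, again opposite to sheep. miR-133b was at -0.50 in virgin mice and at the mouse floor of -5.93 at day 10. miR-223 was at -1.36 and -1.20 and miR-29a at 0.73 and 0.77, nearly level in mouse. The miR-200 family was higher at day 10, by 0.72 for miR-200a, 0.85 for miR-200b, 0.50 for miR-200c and 0.91 for miR-429. Whether species, stage or array accounts for these contrasts cannot be told apart, as each value rests on 1 array.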

How the data were processed

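The authors deposited scanner files of 10 one-colour Agilent miRNA arrays (1 per stage and day, 100 ng total RNA with an RNA integrity number of at least 6, Cy3, per the labels' protocols). Their intensity values are linear and, per the file headers, had background subtracted and spatial trends removed on each array, while arrays were not normalized to one another. The headers give Agilent Feature Extraction 10.5.1.1 and the submitters' processing notes version 9.5. Detection, background, saturation and outlier flags (0 or 1, carried as other values) were set by that software, per the file headers. The deposited value table, also an intensity, equalled the software's total signal times 1 constant per array (0.459 cycle, 0.275 day 14, 0.335 day 64) within 0.1% for 99.3 to 100% of miRNAs with a total signal above 50. The basis of these constants is unknown. Its column medians were -0.603, 0.303 and 0.26.

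Non-outlier spots were averaged per probe and probes per miRNA (20 spots and a median of 2 probes). Each array was divided by its 75th percentile. The floor was the highest, over the 3 arrays, of the 5th percentile of detected values, a choice made after values had been seen, and log2 was taken. The mouse pair had its own floor. A 2-fold change (1 on the log2 scale) was called without a test. limma 3.58.1 (R 4.3.3, lmFit and eBayes, Benjamini-Hochberg over miRNAs that varied) was secondary and was tested on simulated data. Other steps used Python 3.11.15. The number of arrays limits the precision. Alternatives were other scalings, normexp (offset 50), another floor, the brightest probe, other filters, either gestation day alone and the authors' table.

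The members and lists were chosen with earlier results of these data known. Named miRNAs were up to 12 each way past 2-fold on each gestation day, 5 each way between the gestation days, the 10 of highest signal per array, miR-21, miR-205, the miR-200 family, and 2 to 4 per list. miR-140, miR-140*, miR-199a-5p and the miRNAs named for probes of different span were chosen after their values were seen. Sheep gestation day 125, sheep lactation and 3 mouse arrays were used only for the 94 shared miRNAs, the alternative floor from all 10 arrays and the virus miRNA flags.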

Additional observations from a re-analysis of the deposited data

Results flagged for a closer look

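The arrays also carried 10 miRNAs of a mouse gammaherpesvirus, which no comparison used. 1 of the 10, mghv-miR-M1-2, was marked as detected on each of the 3 sheep arrays. Every other array of the series, sheep or mouse, also had 1 virus miRNA marked as detected, so this was not particular to the 3 arrays. The level of mghv-miR-M1-2 was -6.34 in cycle, -5.53 at day 14 and -4.95 at day 64, above the floor of -7.27. No stage or day had enough arrays for a search for outlying samples.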

How the results depend on the processing

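No paired analysis was possible because each stage and day had 1 array and the labels give no numbers shared between arrays. With the 75th percentile over all miRNAs, 41 miRNAs were lower and the median of all members was -0.22, against 18 and 0 in the main setting. Without scaling these values were 30 and -0.13, and with the values the authors deposited 75 and -0.52, with 16 higher against 26. The median was 0.0531 with a floor 4 times lower and -0.0421 among miRNAs detected on all 3 arrays. Day 14 alone gave 17 higher and 9 lower, and day 64 alone 31 lower. The floor from all 10 arrays, an alternative added after the data were seen, gave 10 higher and 7 lower. With normexp 3 were higher and 3 lower, the median was -0.0422, and limma called 113 miRNAs (114 at an unadjusted p under 0.05), of which 108 had equal values on both gestation arrays. There the median spot of the cycle array came to 380 intensity units, against 70.4 and 70.1 on the gestation arrays. These came from like values of 44.2, 45.0 and 43.7 before. In the processed signal of the main setting the median spot was 0.79, 2.62 and 1.89. Of the 26 higher miRNAs 7 stayed above 0 with normexp. Among the named ones the sign turned for miR-671-5p (-0.00095), miR-709 (-0.026), miR-721 (-0.018), miR-296-5p (-0.079), miR-712 (-0.012) and for the striated muscle median (-0.014). limma made no call in any other setting, where between 7 and 53 miRNAs had an unadjusted p under 0.05. The endothelial median of 0.15 was -0.27 with the 75th percentile over all miRNAs, -0.09 without scaling, -0.02 with quantile normalization, -0.07 with the brightest probe and -0.65 in the authors' values. Of the 26 higher miRNAs 21 stayed above 0 with the floor from all 10 arrays, and 14 of the 18 lower ones stayed below 0 with that floor. In all other settings each kept its sign where it was present. Single arrays and dim probes in cycle limit all values.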
